A study of Mus musculus with 12 samples.

Results

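The reads described here are those that the SPORTS1.1 annotation assigned to its piRNA class, in all 12 small RNA libraries of a study of mouse sperm and TM4 cells. They were taken by class name alone and form 2 of the 1534 rows of the joint read count table, one for reads that also matched the mouse genome and one for reads that did not. The class held no subclass rows (0 in every library), so no single piRNA is named in these data. In all, 100052032 of 549805029 clean reads, or 18.2%, carried the piRNA annotation. Of these, 17818609 matched the genome and 82233423 did not, so 17.8% of the piRNA-annotated reads had a genome match. Values are RPM, that is, reads per 1000000 clean reads after removal of rRNA-annotated reads.

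piRNAs are small RNAs bound by PIWI proteins, which act mainly in the germ line of animals and are best known for the silencing of transposons. In the mouse testis, spermatogenic cells make them in large amounts from long single-stranded precursors encoded in clusters, and only a part of them is carried into mature sperm. Sertoli cells are the somatic nurse cells of the seminiferous tubule and are not a known major source of piRNAs. In the annotation used here the piRNA database came last, after the rRNA, tRNA, miRNA and other non-coding RNA databases. A read was therefore called piRNA only if none of those had claimed it, and one mismatch to the database entry was allowed.

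Sperm came from the epididymis of male C57BL6/J mice that received the control diet (CD, 16% of energy from fat) or the high-fat diet (HFD). The HFD held 69% of energy from fat by the sample labels, with a lower figure in the methods. Diets were given for 7 weeks from 4 weeks of age, while a figure legend of the paper gives a later starting age. Each of the 3 libraries per diet pooled sperm RNA of 3 mice. TM4, a mouse Sertoli cell line, gave 2 libraries each of untreated cells (Ctrl), cells exposed to 10 µM Compound C (CC, an inhibitor of AMPK) for 12 hours, and cells overexpressing the coding sequence of the RNase angiogenin from a Gateway plasmid (Ang OE). No vehicle or empty-vector control is described for the Ctrl libraries, and the CC and Ang OE comparisons share them. Nothing states whether the TM4 replicates were separate cultures, so p-values measure the spread between these libraries.

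The libraries held 31710445 to 64038150 clean reads, and 23030602 to 59623558 after removal of rRNA reads. Replicates differed by far more than counting noise (chi-square per degree of freedom 399 to 1788). miRNA lists were used to check the labels. The summed level of 13 testis germ cell miRNAs was 1986 to 5427 RPM in sperm and 550 to 1335 RPM in TM4, where 4 of the 13 had no read and mir-34c made up 93.8% of the sum. The 5 epithelial miRNAs summed to 4480 to 7580 RPM in sperm and at most 1.55 RPM in TM4. Sperm libraries also held 4 red blood cell miRNAs at 12630 to 25341 RPM and 6 mesenchymal miRNAs at 16314 to 30943 RPM, of which mir-143 alone made up 94.7%. The same red blood cell list summed to 1090 to 1639 RPM and the mesenchymal list to 39479 to 89993 RPM in TM4, where mir-143 made up 80.2% of it. No Sertoli cell marker was among these lists. In bulk libraries of this kind, fewer cells of a type and less RNA per cell cannot be told apart.

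The total of piRNA-annotated reads hardly separated sperm from Sertoli cells. It was 199483, 254452 and 212282 RPM in the CD libraries and 214370, 196853 and 190904 RPM in the HFD libraries. In TM4 it was 218415 and 214382 RPM for Ctrl, 222361 and 234249 RPM for CC, and 193498 and 200382 RPM for Ang OE. The ranges of the germ line and the somatic libraries overlapped, and the highest of the 12 values was 1.33 times the lowest. The means were 211391 ± 22964 RPM (SD, n = 6) in sperm and 213881 ± 14868 RPM (n = 6) in TM4 (exact permutation p = 0.818, 2-sided, adjusted p = 0.818 over 8 classes). Over all clean reads, rRNA included, the sperm total was lower by 0.34 on the log2 scale (exact permutation p = 0.00649), and rRNA reads made up 16.5% to 32.9% of the clean reads in sperm and 5.92% to 8.58% in TM4.

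**Figure D1:**
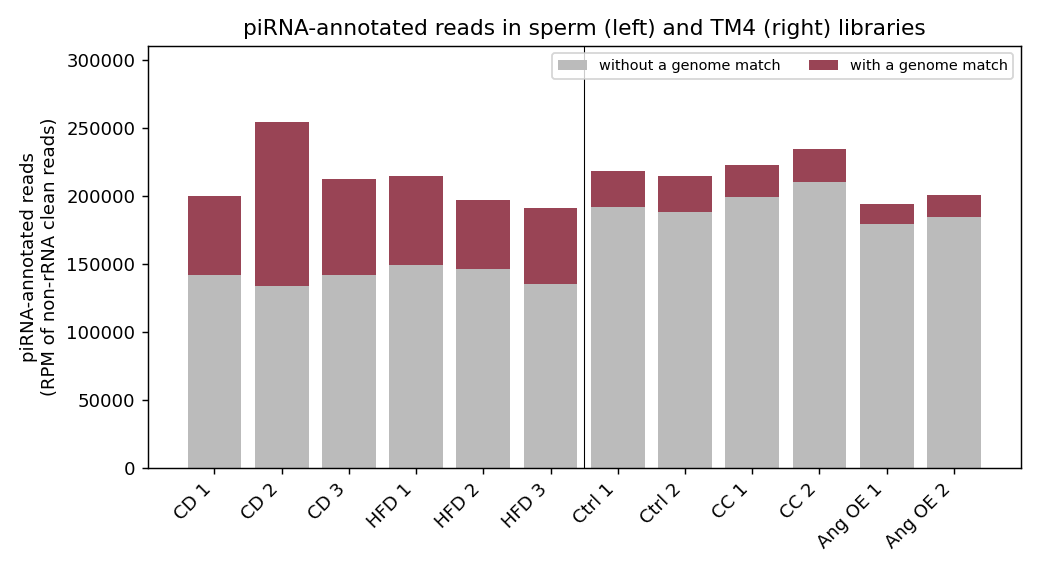
piRNA-annotated reads per library in RPM of non-rRNA clean reads, as stacked bars for reads without (grey) and with (red) a genome match. Totals lie between 190904 and 254452 RPM in all 12 libraries, while the genome-matched part runs from 14451 RPM in an Ang OE library to 121181 RPM in CD replicate 2.

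The 2 rows behind this total did not behave alike. Genome-matched piRNA reads were at 57937, 121181 and 70907 RPM in the CD libraries and at 65301, 50759 and 56042 RPM in the HFD libraries. In TM4 they were at 27114 and 26401 RPM for Ctrl, 23256 and 24037 RPM for CC, and 14451 and 15769 RPM for Ang OE. Every sperm library thus lay above every TM4 library. Among the 6 sperm libraries the highest value was 2.39 times the lowest, or 1.40 times without CD replicate 2, and among the 6 TM4 libraries it was 1.88 times the lowest.

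Genome-unmatched piRNA reads varied little within either set. They were at 141546, 133271 and 141375 RPM in the CD libraries and at 149069, 146095 and 134862 RPM in the HFD libraries. In TM4 they were at 191300 and 187981 RPM for Ctrl, 199104 and 210213 RPM for CC, and 179047 and 184614 RPM for Ang OE. The highest value was 1.12 times the lowest in sperm and 1.17 times the lowest in TM4, and here every TM4 library lay above every sperm library. Set against miRNA reads in place of all non-rRNA reads, unmatched piRNA reads numbered 25.5 to 36.2 per 100 miRNA reads over the 12 libraries, and the sperm and TM4 ranges overlapped. Matched piRNA reads numbered 9.44 to 25.2 per 100 miRNA reads in sperm and 2.21 to 4.82 in TM4.

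Sperm and TM4 libraries were compared first, since they differ in germ line origin. Genome-matched piRNA reads averaged 70354 ± 25893 RPM (SD, n = 6) in sperm and 21838 ± 5421 RPM (n = 6) in TM4, a log2 ratio of 1.69 (exact permutation p = 0.00216, adjusted p = 0.00247 over 8 classes). This p is the smallest that 6 libraries against 6 can give, and genome-matched levels did not overlap between the sets for 7 of the 8 classes, piRNA included. Unmatched piRNA reads averaged 141036 ± 6147 RPM in sperm and 192043 ± 11146 RPM in TM4, a log2 ratio of -0.45 (exact permutation p = 0.00216, adjusted p = 0.00303 over 7 classes). Of these 7 classes all passed the adjusted threshold for unmatched reads, and 5, piRNA included, did not overlap between the sets. Leaving out CD replicate 2 or any other library kept both directions. Cell type cannot be told apart from collection, rRNA content and the other ways in which the sets differ.

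In a test across all features, edgeR's quasi-likelihood test of CD sperm against Ctrl TM4 gave a log2 fold change of 1.64 for genome-matched piRNA reads (adjusted p = 3.25e-05) and of -0.45 for unmatched reads (adjusted p = 0.00116). In this comparison 870 of 1037 features, or 83.9%, passed the adjusted threshold of 0.05, with 35.6% higher and 48.3% lower in sperm, so a call in itself sets the piRNA rows apart from few others. The split of 369 higher and 501 lower calls was 422 and 434 with TMM normalization and turned to 435 and 415 with the size factors of DESeq2. The sign of the unmatched row depended on the scaling. It was -0.45 with non-rRNA reads as library size, 0.14 with TMM normalization and 0.28 with the size factors of DESeq2, neither of which passed the test, while the median over all features moved from -0.70 to -0.12 and 0.02. The matched row stayed higher in sperm under each of these scalings. With both rows added, the fold change was 0.04 (edgeR adjusted p = 0.795).

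The genome-matched share of piRNA reads was then set beside that of other classes, since it is a ratio within a class and does not depend on library size. It was 29.0%, 47.6% and 33.4% in CD sperm and 30.5%, 25.8% and 29.4% in HFD sperm. In TM4 it was 12.4% and 12.3% for Ctrl, 10.5% and 10.3% for CC, and 7.47% and 7.87% for Ang OE. At this depth the Wilson 95% intervals of these shares were 0.0319 to 0.0805 percentage points wide and cover counting error only, so the differences between replicates were much larger than counting error. The mean was 32.6 ± 7.75% (SD, n = 6) in sperm and 10.1 ± 2.11% (n = 6) in TM4 (exact permutation p = 0.00216, adjusted p = 0.00247 over 8 classes). A difference of this share between the sets was not particular to piRNA reads. All 8 classes passed the adjusted threshold, and for 7 of them, piRNA included, the sets did not overlap. The share averaged 72.2% in sperm and 19.8% in TM4 for mitochondrial tRNA, and 52.2% and 24.0% for rRNA. Rfam RNA ran the other way, at 36.4% in sperm and 51.3% in TM4, again with no overlap.

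**Figure D2:**
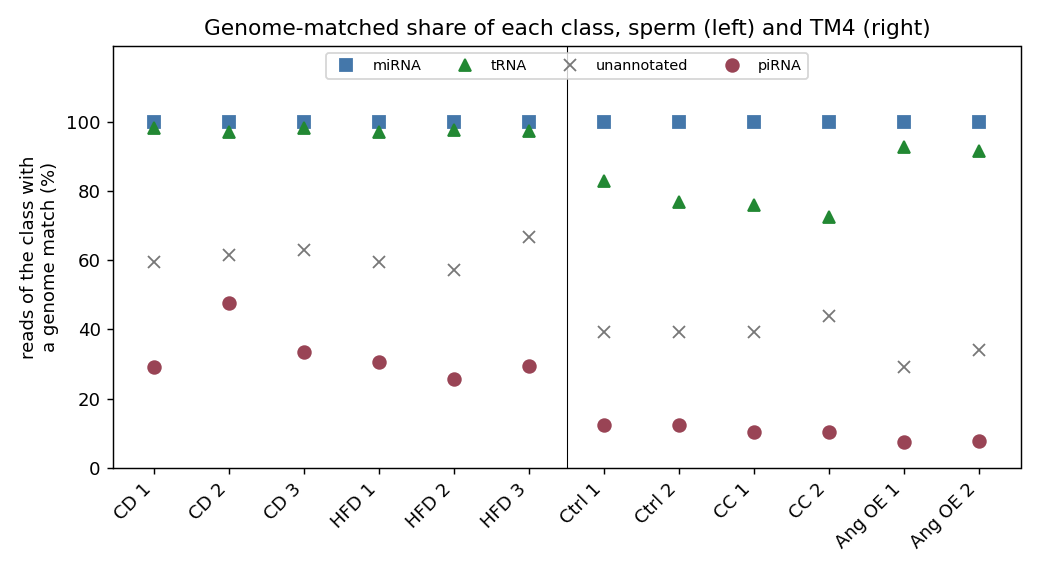
Percentage of the reads of each class with a genome match, by library, for miRNA (squares), tRNA (triangles), unannotated (crosses) and piRNA reads (circles). piRNA reads have the lowest share of these 4 classes in all 12 libraries, between 7.47% and 47.6%.

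miRNA and tRNA reads matched the genome far more often. miRNA reads, which are assigned to miRBase hairpins, matched the genome almost without exception, with 24 to 65 unmatched reads per sperm library. tRNA reads matched at 97.1% to 98.3% in sperm. In TM4 they matched at 83.0% and 76.8% for Ctrl, 76.0% and 72.6% for CC, and 92.7% and 91.5% for Ang OE. Unannotated reads, which no database claimed, matched at 57.2% to 66.8% in sperm and at 29.2% to 43.8% in TM4. The nearest classes were Rfam RNA, at 34.4% to 38.6% in sperm, and in TM4 mitochondrial tRNA, at 17.1% to 22.0%, and rRNA, at 18.0% to 27.8%. In CD replicate 2 the Rfam share, 34.4%, lay below the piRNA share, and in the other 11 libraries the piRNA share was below that of every other class. Within libraries, the piRNA share lay below the miRNA share by 52.4 to 74.2 percentage points in sperm, with a mean difference of -67.4 points, and the mean difference in TM4 was -89.9 points. Against tRNA reads the mean difference was -65.1 points in sperm and -71.9 points in TM4. The differences to tRNA were below 0 in 6 of 6 libraries of each set. In TM4 their exact sign-flip p was 0.03125, the smallest that 6 libraries can give. Almost all miRNA reads matched, and so did nearly all tRNA reads in sperm. The differences to miRNA, and in sperm to tRNA, could hardly lie elsewhere than below 0, so no test of them is given.

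Seen from the other side, most reads without a genome match were piRNA-annotated. Leaving out rRNA reads, genome-unmatched reads made up 17.8% to 20.2% of a sperm library and 23.7% to 27.5% of a TM4 library. The piRNA class held 72.8% to 76.4% of them in sperm and 70.1% to 76.4% in TM4 (means 75.2% and 74.1%, exact permutation p = 0.353, adjusted p = 0.353 over 5 share measures). Of the genome-matched reads without rRNA, the piRNA class held 6.28% to 14.8% in sperm and 1.89% to 3.73% in TM4 (exact permutation p = 0.00216, adjusted p = 0.00541 over 5 share measures). The portion of unmatched reads that the class held thus varied by 1.09 times over the 12 libraries, and the portion of matched reads by 7.84 times, or by 4.60 times without CD replicate 2.

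The reads that reached the piRNA step, namely the piRNA-annotated and the unannotated reads together, were examined in the same way. Of the genome-matched reads at this step, 49.9%, 63.6% and 51.8% were assigned to piRNA in CD sperm and 49.6%, 49.4% and 43.0% in HFD sperm. In TM4 the shares were 36.3% and 41.1% for Ctrl, 37.6% and 36.0% for CC, and 40.2% and 35.4% for Ang OE. All sperm libraries lay above all TM4 libraries (means 51.2% and 37.8%, exact permutation p = 0.00216, adjusted p = 0.00541 over 5 share measures). Of the genome-unmatched reads at this step, 72.3% to 79.3% were assigned to piRNA in the 12 libraries, with means of 77.7% in sperm and 76.5% in TM4 (exact permutation p = 0.323, adjusted p = 0.353 over 5 share measures).

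**Figure D3:**
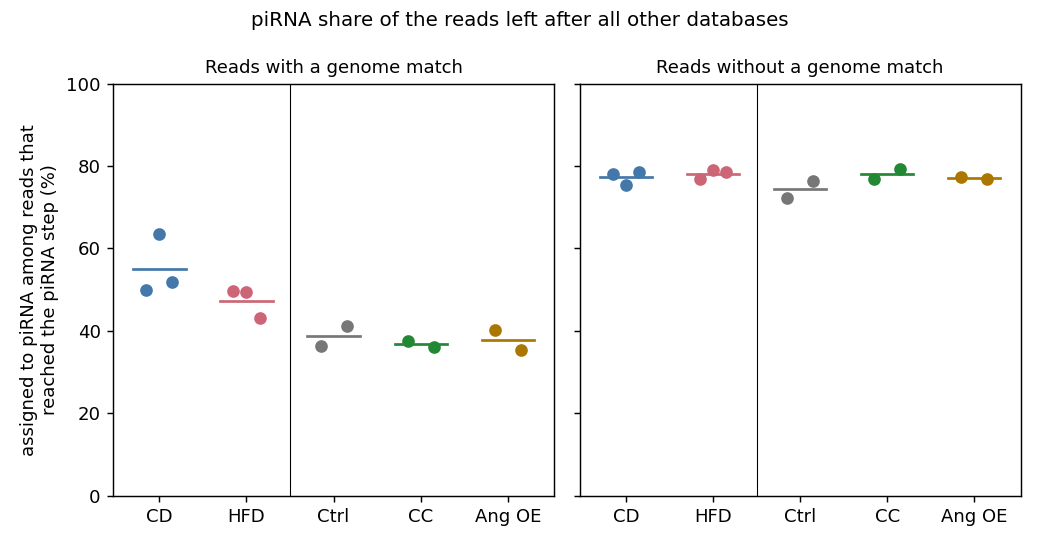
Percentage of reads assigned to piRNA among those left after all other databases (piRNA-annotated plus unannotated), for reads with (left panel) and without (right panel) a genome match, with 1 point per library and lines at group means. Without a genome match all libraries lie between 72.3% and 79.3%, and with one, sperm lies at 43.0% to 63.6% and TM4 at 35.4% to 41.1%.

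Whether the HFD altered piRNA-annotated reads in sperm was asked next. Genome-matched piRNA reads averaged 83342 ± 33406 RPM (SD, n = 3) in CD sperm, as against 57367 ± 7361 RPM (n = 3) in HFD sperm, a log2 ratio of -0.54 (exact permutation p = 0.2, adjusted p = 0.64 over 8 classes). With 3 libraries against 3 the smallest possible p is 0.1. The groups overlapped, and the difference rested largely on CD replicate 2. Without this library the CD mean was 64422 RPM and the log2 ratio was -0.17. Unmatched piRNA reads averaged 138731 ± 4729 RPM in CD sperm, as against 143342 ± 7493 RPM in HFD sperm (log2 ratio 0.05, exact permutation p = 0.4, adjusted p = 0.7 over 7 classes).

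The genome-matched share of piRNA reads was 36.7 ± 9.72% on the CD and 28.5 ± 2.44% on the HFD, lower by 8.16 percentage points (exact permutation p = 0.3, adjusted p = 0.6 over 8 classes) and by 2.69 points without CD replicate 2. Of the 5 share measures, only the piRNA share of genome-matched reads at the piRNA step did not overlap between the diets. Its lowest CD library was at 49.9% and its highest HFD library at 49.6%. The difference of the means was -7.77 points (exact permutation p = 0.1, the smallest possible, adjusted p = 0.5 over 5 share measures), and -3.53 points without CD replicate 2 (exact permutation p = 0.4). The same share for unmatched reads differed by 0.75 points (exact permutation p = 0.5), and by -0.19 points without CD replicate 2 (exact permutation p = 1.0). None of these differences passed the threshold of 0.05.

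In edgeR's test across 833 features, genome-matched piRNA reads had a log2 fold change of -0.54 ± 0.25 (SE, unadjusted p = 0.0538, adjusted p = 0.459) and unmatched reads one of 0.05 ± 0.13 (adjusted p = 0.873). At the adjusted threshold edgeR called 0 of the 833 features, that is 0%, with 93 at an unadjusted p under 0.05, while DESeq2 with the same library sizes called 3. The median log2 fold change of all features was 0.25, so genome-matched piRNA reads lay below it and unmatched reads did too. Unmatched reads turned to -0.16 with TMM normalization. The matched row lay further below 0 under other scalings, and none passed the adjusted threshold. It was at -0.72 with TMM (edgeR adjusted p = 0.481) and -0.67 over all clean reads (edgeR adjusted p = 0.517). With the size factors of DESeq2 it was at -0.75 (DESeq2 adjusted p = 0.200).

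CD replicate 2 stood apart from the other sperm libraries in its genome-matched piRNA reads and not in its unmatched ones. It held 2.01 times the mean of the other 5 sperm libraries, which was 60189 ± 7941 RPM (SD, n = 5), whereas its unmatched reads were at 0.935 times theirs. Its germ cell miRNAs, at 5427 RPM, were also the highest of the sperm libraries, where the other 5 had 1986 to 2908 RPM, and its tRNA reads were the lowest, at 107549 RPM against 129686 to 165869 RPM. The part of germ cell RNA in the high piRNA value was not tested.

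In TM4 cells, the effects of AMPK inhibition and of angiogenin overexpression on the piRNA rows were measured against the same Ctrl libraries. Neither row passed the test for CC. Genome-matched piRNA reads averaged 26758 RPM in Ctrl and 23646 RPM in CC, with no overlap between the groups, as for 48.4% of the 922 features tested (edgeR log2 fold change -0.18, adjusted p = 0.418). Unmatched reads averaged 189640 RPM in Ctrl and 204658 RPM in CC, again with no overlap (log2 fold change 0.11, edgeR adjusted p = 0.476). With 2 libraries against 2 an exact test cannot fall below 0.333, so none was run. The genome-matched share averaged 12.4% in Ctrl and 10.4% in CC. This share did not overlap between the groups for 5 of 8 classes, piRNA included, and was not tested. In this comparison edgeR called 2 of 922 features, or 0.217%.

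Ang OE was accompanied by fewer genome-matched piRNA reads. They averaged 15110 RPM, 0.565 times the Ctrl level, and the groups did not overlap, as for 69.6% of the features tested (edgeR log2 fold change -0.82 ± 0.10 SE, adjusted p = 0.00805). Here 229 of 922 features were called, or 24.8%, with 99, or 10.7%, higher and 130, or 14.1%, lower in Ang OE. Under TMM normalization the split of higher and lower calls turned from 99 and 130 to 132 and 67, the median of all features moved from -0.22 to 0.03, and the matched piRNA reads remained lower with a log2 fold change of -0.58 (edgeR adjusted p = 0.0135). The call was lost when Ctrl replicate 2 (adjusted p = 0.0579), Ang OE replicate 1 (0.0580) or Ang OE replicate 2 (0.0516) was left out of the edgeR fit, where the log2 fold change stayed between -0.89 and -0.76. In those fits the lone library of a group is assumed to vary like the others, and edgeR called 0 features, with 244, 269 and 296 at an unadjusted p under 0.05, and 61 without Ctrl replicate 1.

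Unmatched piRNA reads averaged 181830 RPM in Ang OE, close to the Ctrl mean of 189640 RPM (edgeR log2 fold change -0.06, adjusted p = 0.551, and 0.19 with TMM). The total of both rows averaged 216398 RPM in Ctrl and 196940 RPM in Ang OE (edgeR log2 fold change -0.14, adjusted p = 0.218). The means in Ang OE differed from Ctrl by -11648 RPM for matched and by -7810 RPM for unmatched reads, where matched reads were 12.4% of the class in Ctrl. The genome-matched share averaged 12.4% in Ctrl and 7.67% in Ang OE. For tRNA reads the same share averaged 79.9% in Ctrl and 92.1% in Ang OE. The groups overlapped for neither class, nor for Rfam RNA, rRNA and unannotated reads, which makes 5 of 8 classes, and these shares were not tested.

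Other reads moved beside the piRNA rows in Ang OE. Genome-matched unannotated reads, the other product of the piRNA step, had a log2 fold change of -0.76 (edgeR adjusted p = 0.0261), and the piRNA share at this step for matched reads was 38.7% in Ctrl and 37.8% in Ang OE. tRNA reads were at 27620 and 22694 RPM in Ctrl and at 36798 and 49595 RPM in Ang OE. The mesenchymal miRNA list summed to 41354 to 41563 RPM in Ctrl and 72960 to 89993 RPM in Ang OE, with mir-143 at 71.9% and 85.8% of the sum, and the germ cell list, nearly all mir-34c, to 591 to 609 RPM and 1195 to 1335 RPM. The red blood cell list was lower, at 1607 to 1639 RPM in Ctrl and 1090 to 1164 RPM in Ang OE. The epithelial list was at most 1.16 RPM in Ctrl and 1.55 RPM in Ang OE. The part of these differences in the piRNA values was not tested.

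Ang OE and CC, which share no library, were compared directly. Genome-matched piRNA reads were lower in Ang OE by 0.65 on the log2 scale (edgeR log2 fold change -0.65, adjusted p = 0.00533), where 313 of 922 features were called, or 33.9%, with 106, or 11.5%, higher and 207, or 22.5%, lower in Ang OE. With TMM the split of higher and lower calls was 169 and 124 in place of 106 and 207, and the matched row remained lower at -0.36 (edgeR adjusted p = 0.0376). With the size factors of DESeq2 the row was at -0.42 and its adjusted p was 0.0583. Unmatched reads had a log2 fold change of -0.17 (edgeR adjusted p = 0.106) that turned to 0.12 with TMM.

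**Figure D4:**
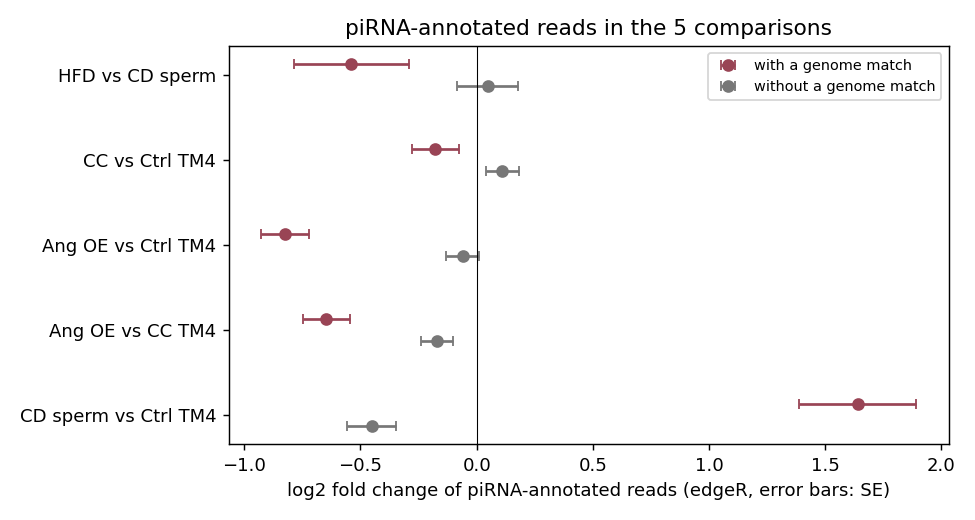
Log2 fold changes of genome-matched (red) and genome-unmatched (grey) piRNA-annotated reads in the 5 comparisons, from edgeR with non-rRNA reads as library size, with bars of 1 SE. The matched row ranges from -0.82 to 1.64 and the unmatched row from -0.45 to 0.11.

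The features whose levels followed the piRNA rows most closely across libraries were then listed, after the mean of the 6 sperm or 6 TM4 libraries had been subtracted from each log2(RPM + 1) value. Among the features with a mean of at least 100 reads, genome-matched piRNA reads were most like sense intronic RNA (Pearson r = 0.95 over 12 libraries), antisense RNA (r = 0.94) and bidirectional promoter lncRNA (r = 0.93), which are Ensembl classes of long non-coding transcripts. mir-350 (r = 0.84) and lincRNA (r = 0.80), the Ensembl class of intergenic long non-coding RNA, came next. These values share the libraries and their denominators, and are a description. Without CD replicate 2 the r for sense intronic RNA was 0.90, for antisense RNA 0.94, for bidirectional promoter lncRNA 0.94, for mir-350 0.72 and for lincRNA 0.87. Antisense RNA (rank 3) and bidirectional promoter lncRNA (rank 2) then stayed among the 5 closest features, while sense intronic RNA was at rank 6, lincRNA at rank 10 and mir-350 at rank 70.

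In sperm, antisense RNA was at 1129, 1840 and 1291 RPM in the CD libraries and at 1333, 1097 and 1312 RPM in the HFD libraries, with CD replicate 2 highest as for the piRNA row. In TM4 it was at 759 and 723 RPM in Ctrl, 646 and 605 RPM in CC, and 421 and 444 RPM in Ang OE. A shared order with the matched piRNA reads follows from how these features were chosen, so no test of them is given. Fragments of lincRNA were at 5603, 9764 and 6180 RPM in the CD libraries and at 6833, 5299 and 5447 RPM in the HFD libraries. In TM4 they were at 7223 and 10952 RPM in Ctrl, 4851 and 10724 RPM in CC, and 2395 and 2419 RPM in Ang OE, with the replicates of Ctrl and CC far apart and Ang OE below all of them.

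**Figure D5:**
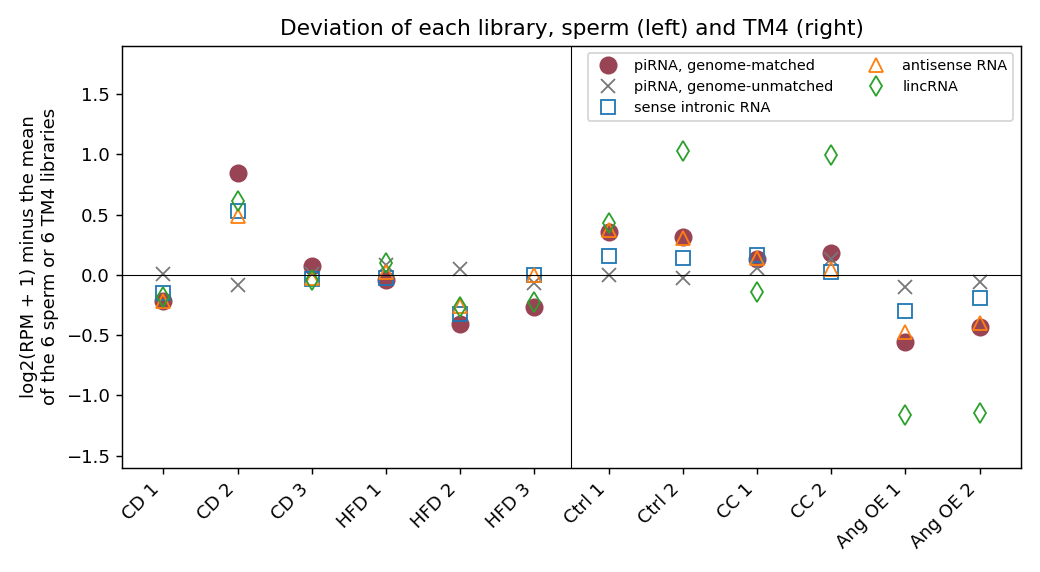
Deviation of log2(RPM + 1) from the mean of the 6 sperm or 6 TM4 libraries, by library, for both piRNA rows and 3 Ensembl classes chosen for their likeness to the matched row. Matched piRNA reads (filled circles) and the Ensembl classes are highest in CD replicate 2 among sperm and lowest in Ang OE among TM4, while unmatched piRNA reads (crosses) stay near 0.

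Unmatched piRNA reads had other companions. They were most like mir-374b (r = 0.81 over 12 libraries), tRNA-Cys-GCA reads without a genome match (r = 0.79), tRNA-Cys-GCA and tRNA-Gln-CTG fragments ending in the CCA tail (r = 0.77 for each), and tRNA-Ala-AGC reads without a genome match (r = 0.77). For these 5 features r ran from 0.35 to 0.67 in the 6 sperm libraries and from 0.89 to 0.97 in the 6 TM4 libraries. The unmatched tRNA-Ala-AGC reads were at 377 and 467 RPM in Ctrl, 584 and 803 RPM in CC, and 147 and 233 RPM in Ang OE, an order that follows from how the feature was chosen. Without CD replicate 2 the ranks were 9 for mir-374b, 2 for unmatched tRNA-Cys-GCA reads, 3 and 10 for the CCA-tailed fragments of tRNA-Cys-GCA and tRNA-Gln-CTG, and 6 for tRNA-Ala-AGC, with r between 0.83 and 0.89.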

How the data were processed

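Small RNA libraries were made from sperm of mice on 2 diets and from TM4 cells of 3 groups with the TruSeq Small RNA kit. According to the submitters' processing notes and the methods, quality was checked with FastQC 0.12.0, adaptors were trimmed with Trimmomatic 0.40, and trimmed reads were annotated with SPORTS1.1 with one mismatch, the notes giving the genome build mm10. Per the deposited files, the authors' SPORTS1.1 run gave for each library the reads per class and subclass, split by genome match, as estimated counts without normalization. A read matching several subclasses was divided among them. The class is named piRNAdb in the files, while the methods name other piRNA databases. Sequences and lengths of the piRNA reads were not analysed here.

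Class totals were divided by clean reads minus rRNA reads. The rows of mature tRNAs were reduced by their end rows so that no read counted double, and rRNA rows were left out of tests. Groups were taken from the labels. Means were compared with exact 2-sided permutation tests and within-library differences with exact sign-flip tests, adjusted by the Benjamini-Hochberg method. Features, rounded to whole reads, were kept from 10 reads upward in 3 or more sperm libraries or 2 or more TM4 libraries and tested with edgeR 4.0.16 (quasi-likelihood, R 4.3.3) with non-rRNA reads as library size, TM4 groups in a fit of all 6 libraries, and called at an adjusted p under 0.05. On simulated data with 200 features changed by 2 on the log2 scale, 96% were recovered with 11 false calls for HFD against CD among the 836 simulated features that passed the filter. The simulation gave every feature the same spread and held no library that stood apart. It does not show how often smaller changes would be found in the real libraries.

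Named features were the piRNA rows, the miRNA, tRNA and unannotated classes, and for each piRNA row the 5 features of at least 100 mean reads with the highest Pearson r. The members and lists were chosen with earlier results of these data known. Alternatives were DESeq2 1.42.0, TMM, other denominators, filters, the replicate number as a block, ComBat-seq (sva 3.50.0) with replicate numbers as batches, since the methods name a batch adjustment without naming batches, and each library left out. miRNA reads as denominator were added after the data were seen. scipy 1.17.1, numpy 2.4.6 and pandas 2.3.3 under Python 3.11.15 gave the values, and matplotlib 3.10.9 the figures.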

Additional observations from a re-analysis of the deposited data

Results flagged for a closer look

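CD replicate 2 lay far from the other 5 sperm libraries in 4 of 18 checks made on 6 libraries at a time, each of which chance marks in about 1 of 20 cases, and the 4 measures overlap. These were its total piRNA-annotated reads (254452 RPM, others at most 214370), its genome-matched piRNA reads (121181 RPM, others at most 70907), the genome-matched share of its piRNA reads (47.6%, others at most 33.4%) and the piRNA share of its genome-matched non-rRNA reads (14.8%, others at most 8.71%).

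A small separate Rfam class also named piRNA was counted here with Rfam RNA and not in the piRNA class. This Rfam class held 18 and 21 reads in the Ang OE libraries and 5 and 11 reads in Ctrl, of 52665390 or more clean reads. It held 4 and 9 reads in CC and at most 2 in a sperm library.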

How the results depend on the processing

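Of 472 recomputed values for 46 results, 391 kept their direction and side of the threshold or, without a test, moved by less than 1 SD (counts, by less than 1.5 times). Of the rest, 18 reversed direction, 31 lost the threshold, 1 gained it and 31 moved further. Many of the 391 could only keep their side. Exact tests of 3 libraries against 3 cannot pass 0.05, and values from added reads or medians kept the p of the main test. Unmatched piRNA reads in HFD against CD turned to -0.10 over all clean reads, -0.036 over miRNA reads, and in the tests across features to -0.16 (TMM), -0.19 (DESeq2 size factors) and -0.10 (all clean reads). The piRNA share of unmatched reads at the piRNA step turned to -1.98 points with both kinds of reads added, and with single libraries left out ran from -0.19 to 1.42. The cause of these turns was not tested.

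The sperm against TM4 ratio of total piRNA reads was -0.34 over all clean reads (exact permutation p = 0.00649), 0.23 over miRNA reads and 0.037 for CD against Ctrl, and -0.077 to 0.011 without single libraries. For CD against Ctrl alone, 1.64 (matched), -0.45 (unmatched) and 24.3 points (matched share) could not pass the exact permutation test, whose smallest p for 3 libraries against 2 is 0.1. Unmatched reads turned with TMM and DESeq2 size factors to 0.14 and 0.28 (CD against Ctrl), 0.19 and 0.10 (Ang OE against Ctrl) and 0.12 and 0.058 (Ang OE against CC), and matched reads in Ang OE against CC, at -0.42, missed the threshold with DESeq2 size factors. Over miRNA reads, the total, matched and unmatched log2 ratios were -0.27, -0.95 and -0.19 for Ang OE against Ctrl and -0.33, -0.76 and -0.29 for Ang OE against CC, and over annotated reads the total and unmatched ratios for Ang OE against Ctrl were -0.18 and -0.11.

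Without single libraries, matched reads in Ang OE against Ctrl ran from -0.89 to -0.76. The share differences to miRNA ran from -70.4 to -66.0 points in sperm and -90.3 to -89.3 in TM4. Those to tRNA ran from -68.1 to -63.7 in sperm and -73.9 to -69.3 in TM4. For the differences to tRNA in TM4, the exact sign-flip p of 5 libraries is 0.0625 at the least.

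Features called for HFD against CD numbered 0, and 3 with DESeq2, 15 with its size factors and 23 without a filter. For CC against Ctrl they numbered 2, and 32 with DESeq2 under either size factors, 78 after ComBat-seq, 0 with TMM, the filter of 100 reads, matched and unmatched added or the 2 groups alone (116 to 141 at an unadjusted p under 0.05, all edgeR), and 0 to 7 without single libraries. For Ang OE against Ctrl they numbered 229, and 386 after ComBat-seq and 0 to 61 without single libraries, and for Ang OE against CC 313, and 123 to 249 without single libraries.

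Same-numbered sperm libraries did not deviate together (r = -0.246, -0.076 and 0.108). Nothing states whether same-numbered TM4 libraries share a batch, and those of Ctrl and CC deviated together (r = 0.662). With the replicate number as a block, 17 features were called for HFD against CD and 4 for CC against Ctrl, and matched piRNA reads were at -0.47 (edgeR adjusted p = 0.531) and -0.18 (adjusted p = 0.494). The block changed no call of a piRNA row.

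Groups of 2 or 3 libraries and a single annotation run limit these values, and read sequences were not analysed here. Depth was not the limit for the genome-matched share of piRNA reads, whose Wilson 95% intervals were under 0.1 percentage points wide in every library.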
